A study of Mus musculus with 10 samples.

Results

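The kinesin, dynein and dynactin genes were compared in the nucleus accumbens (NAc), the ventral part of the striatum, of 5 C57BL/6J (B6) and 5 DBA/2J (D2) mice. They were taken as every row of the deposited raw count table whose Ensembl identifier belongs to a protein-coding gene of the GRCm39 annotation with a name starting in Kif, Dync, Dynl or Dctn. The annotation holds 76 such genes, of which 72 had a row among the 29883 genes of the table. Kif2b, Kif4-ps, Dynlt2a1 and Dynlt2a2 had none. B6 and D2 are inbred progenitor strains of the BXD recombinant inbred panel, and all mice were males of 9 weeks that had not been given ethanol. Each mouse gave 1 poly-A RNA library, so the mouse was the replicate. The study asked how the strains differ at baseline in the splicing of Nin, which encodes ninein, a centrosomal protein that also serves as an adaptor of dynein. Only males of a single inbred line stood for each strain.

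Kinesins and cytoplasmic dynein are motors that walk along microtubules with energy from ATP. Most kinesins walk toward the plus ends, which in axons carries vesicles and mitochondria away from the cell body, while cytoplasmic dynein walks toward the minus ends with the help of the dynactin complex, regulators and cargo adaptors. In neurons these motors supply synapses and return endosomes to the cell body, and in cilia kinesin-2 and dynein-2 move cargo out to the tip and back. Actin-related and capping subunits of dynactin have other names and are not among the genes described here.

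Between 96977262 and 116776714 reads per library were counted on genes. Values by mouse are normalized counts, that is, reads scaled by TMM factors to the mean effective depth of the 10 libraries, and levels are set between genes only per kb of the Ensembl canonical transcript. The tissue carried striatal markers in every library, since the summed level of 8 striatal genes was 403270 to 523392 in B6 and 335508 to 403727 in D2, with 6 of 8 lower in D2 and none at 0. Cortex neuron markers were also present, at uneven levels. The sum of 6 cortex neuron markers was 104952 to 106608 in B6 replicates 3 and 5, 15263 to 23793 in the other 3 B6 mice and 31300 to 70273 in D2, with none of the 6 called between the strains by edgeR or DESeq2 (1 had an unadjusted p under 0.05) and none at 0. B6 replicates 3 and 5 also had the highest sums of 5 oligodendrocyte markers, 628818 and 624511, against 429973 to 513710 in the other B6 mice. The striatal sums of these 2 mice, 407706 and 403270, were the lowest of B6, where the other 3 had 453211 to 523392. Counts of B6 replicates 3 and 5 differed by a mean chi-square of 4.89 per gene, where sampling noise alone gives about 1. These 2 mice were far more alike than any other pair of mice of a strain, for which the value ran from 17.5 to 118.9. Whether the 2 libraries share material was not tested. They lay on the same side of the other 3 B6 mice for 44 motor genes (28 above and 16 below), which is 61.1% of them against 41.8% of all genes. These 2 shares are not matched for level. A mean of 100 raw counts or more was reached by 60 of the 72 motor genes and by 15388 of the 29883 genes. A motor gene's result is therefore also given without these 2 mice where its call changes or its fold moves by more than 1.5 times. Among the other lists, 3 of 5 astrocyte markers (1 higher), 1 of 5 microglia markers (higher) and 1 of 5 choroid plexus markers (lower) were called, and none of 5 endothelial or 3 oligodendrocyte precursor markers (2 and 1 of them had an unadjusted p under 0.05, and DESeq2 called 1 and 0). In bulk tissue, fewer cells of a type and less RNA per cell cannot be told apart.

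The motor genes covered a wide range of levels. At 10000 or more normalized counts per kb there were 8 genes, at 1000 or more 36, and under 100 there were 21. Kif5a, a neuronal heavy chain of kinesin-1, the main motor of fast axonal transport, led with 52634 counts per kb. It was followed by Dynll2, a light chain of the LC8 family, with 21657, and by Kif1a, the kinesin-3 motor of synaptic vesicle precursors, with 16828. Kifc2, a kinesin-14 that walks to minus ends and is enriched in neurons, reached 13724, and the light chain Dynlrb1 reached 12593. Kif5c and Dctn1 came next, with 12222 and 11230 counts per kb, and Dctn2 with 10203. Levels of Kifc2, Dynlrb1, Kif5c and Dctn1 overlapped between neighbours in this order across mice, and Dctn2 lay just below Dctn1 without overlap. Kif5a stood above every other motor gene in each of the 10 mice. The heavy chain of dynein, Dync1h1, lay at 5940 counts per kb. At the low end were the kinesins of dividing cells, among which Kif23 was highest with 68.8 counts per kb, and 12 motor genes had a mean under 100 raw counts. The summed level of 7 genes of dividing cells was 902 to 1562 normalized counts in B6 and 1140 to 2452 in D2.

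**Figure D1:**
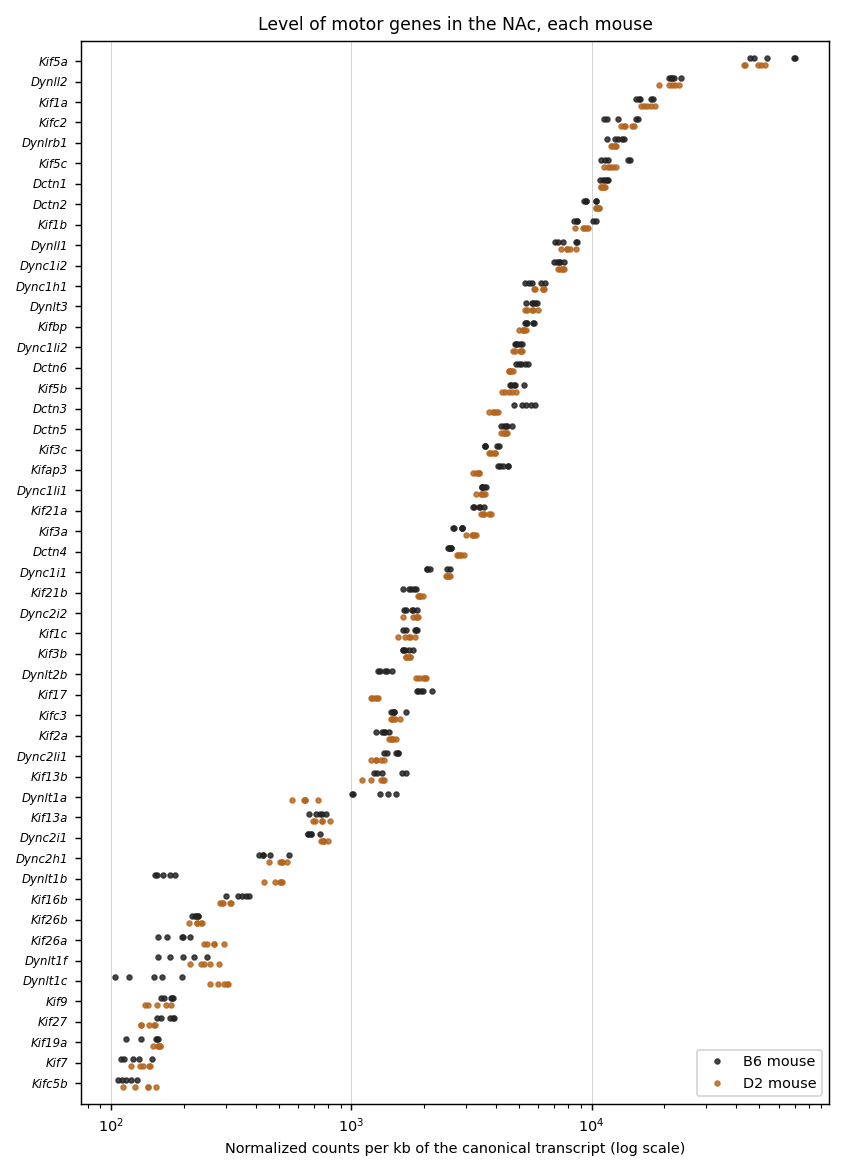
Normalized counts per kb of the canonical transcript (x axis, log scale) for the 51 motor genes with a mean of at least 100 per kb, ordered by level, with a point for each of 5 B6 and 5 D2 mice. Kif5a sits at the top near 52634 counts per kb, and B6 and D2 points lie apart for genes such as Dctn3, Kifap3, Kif17 and Dynlt1b.

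Of the 72 motor genes, 20 differed between the strains at an adjusted p of 0.05 (edgeR's quasi-likelihood test, Benjamini-Hochberg adjustment over all genes), against 18.3% of all genes tested. Of these, 10 were higher in D2 and 10 were lower, where 8.50% and 9.83% of all genes were called in each direction. Where the mean was 100 raw counts or more, a limit chosen after the data were seen, 18 of 60 motor genes were called against 23.8% of all such genes. Values of the strains did not overlap for 17 motor genes, against 16.0% of all genes, and these 17 were all among the 20 called. Lack of overlap by itself gives the smallest p that the 252 assignments of 5 and 5 mice allow (two-sided exact permutation test, p = 0.0079). That p is therefore no further test of these genes. At an adjusted p of 0.01, 13 motor genes were called against 11.4% of all genes. Most of the differences were small, since 15 of the 20 stayed within 1.5-fold. With an absolute log2 fold change of at least 0.2 also required, 14 motor genes were called, 5 higher and 9 lower, against 15.3% of all genes. Over the motor genes the median log2 fold change was 0.02, and over all genes 0.0036.

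**Figure D2:**
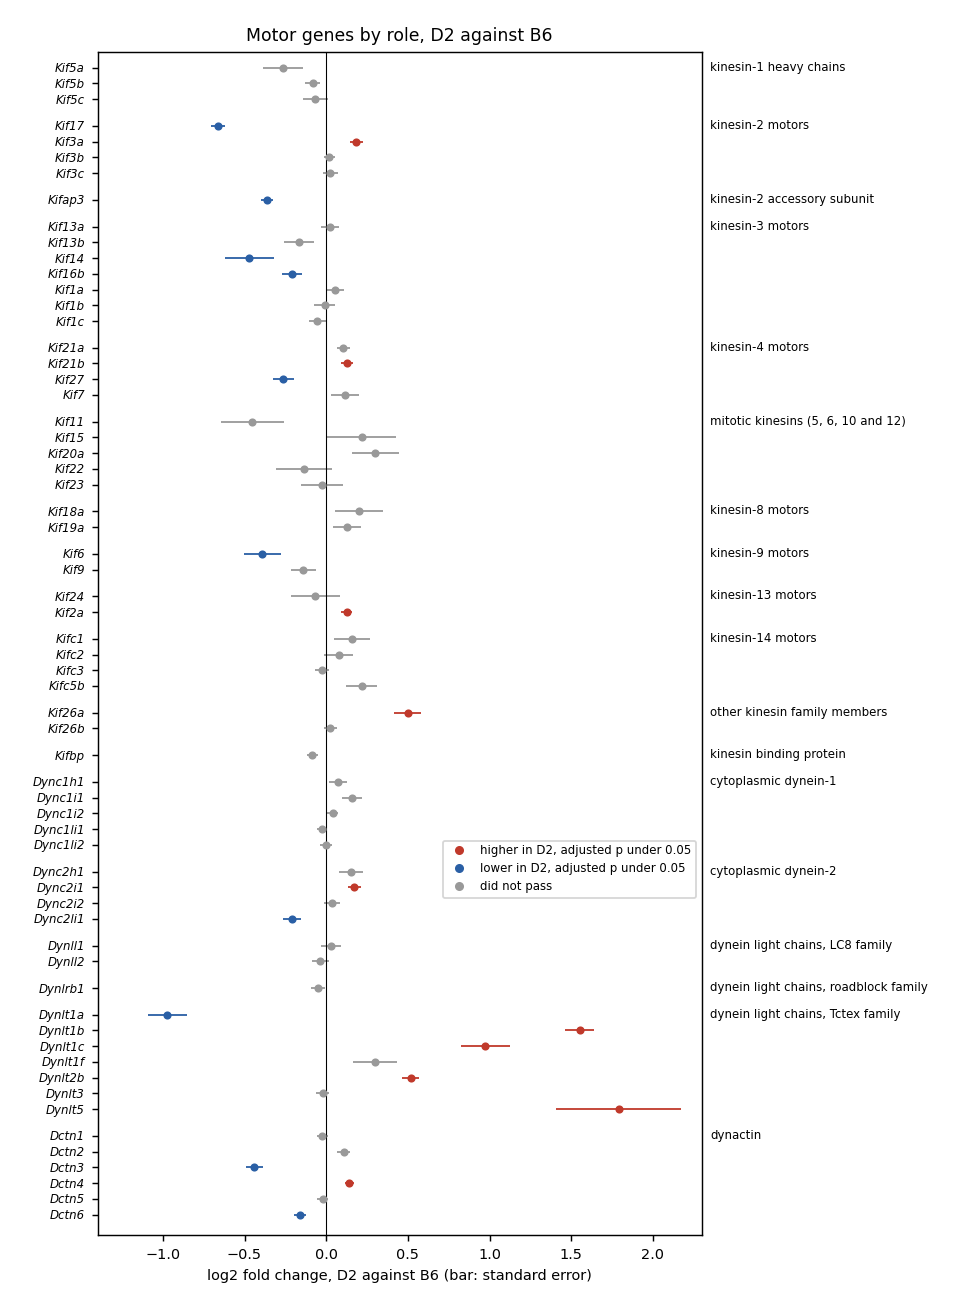
Log2 fold change of D2 against B6 (x axis, point with its standard error from edgeR) for the 60 motor genes at or above a mean of 100 counts and for Kif14 and Dynlt5, called below that level, grouped by role. The dynein light chains of the Tctex family spread from -0.97 to 1.79, while the 5 subunits of dynein-1 lie between -0.03 and 0.16.

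The largest differences were in the Tctex family of dynein light chains, small subunits that bind the intermediate chain of dynein and some of its cargoes. Of its 9 genes with a row, 4 were higher in D2, 1 was lower and 4 did not pass. Dynlt1, the founding gene of the family, is present in the reference genome as 4 copies on chromosome 17 of GRCm39. Dynlt1a lies at 6356613-6367792 on the reverse strand, Dynlt1b at 6697471-6703695 on the forward strand, Dynlt1c at 6869051-6879446 on the forward strand and Dynlt1f at 6914001-6923299 on the reverse strand. Their coding sequences of 339 bases were identical in Dynlt1a, Dynlt1c and Dynlt1f, and that of Dynlt1b differed from them by the single base C21A, counted from the first coding base. The first 27 coding bases, taken from GRCm39 with the differing base in capitals, are shown because they hold the only coding difference by which a read could be told to come from Dynlt1b, and they lie at chr17:6367649-6367675 (-), chr17:6697611-6697637 (+), chr17:6869209-6869235 (+) and chr17:6923173-6923199 (-) in the order of the copies.
Dynlt1a: atggaagacttccaggcctcCgaggag
Dynlt1b: atggaagacttccaggcctcAgaggag
Dynlt1c: atggaagacttccaggcctcCgaggag
Dynlt1f: atggaagacttccaggcctcCgaggag
Outside the coding part the copies differ more. All windows of 150 bases, the read length, were searched letter for letter in the other copies and in Dynlt1-ps1, by its name a pseudogene. A match was found for 58.9% of windows of the canonical transcript of Dynlt1a, 75.7% of Dynlt1b, 55.0% of Dynlt1c and 75.7% of Dynlt1f. How reads that match several copies were treated in the counting is not given in the sources used here, so the split of reads among the copies is uncertain.

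Dynlt1b was higher in D2. Its normalized counts in B6 replicates 1 to 5 were 149.6, 133.4, 126.1, 142.2 and 123.4, and in D2 they were 390.8, 415.1, 351.4, 408.9 and 412.0. Every D2 mouse thus stood above every B6 mouse, with means of 134.9 ± 10.9 in B6 against 395.7 ± 26.5 in D2 (SD, n = 5 each). The difference was 2.93-fold (log2 fold change 1.55, standard error 0.087, adjusted p = 5.96e-08 in edgeR's test). Dynlt1c was higher in D2 as well, with 143.8, 187.2, 98.6, 155.0 and 113.2 normalized counts in B6 and 265.1, 280.3, 288.1, 292.3 and 246.8 in D2. The B6 mice varied more than the D2 mice, but none reached them (log2 fold change 0.97, standard error 0.15, adjusted p = 0.000488).

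Dynlt1a went the other way. It had 1202, 1031, 797.8, 1109 and 790.0 normalized counts in B6 and 441.3, 504.0, 496.0, 569.7 and 500.7 in D2, a log2 fold change of -0.97 (standard error 0.12, adjusted p = 7.70e-05). The lowest B6 values, which were still above every D2 mouse, were those of replicates 3 and 5. Dynlt1f had 153.3 ± 27.9 in B6 against 188.8 ± 19.7 in D2 (SD, n = 5 each), and it did not pass (log2 fold change 0.30, adjusted p = 0.15). Without B6 replicates 3 and 5 its log2 fold change was 0.14 (adjusted p = 0.52), and with the cortex marker level as a covariate it was 0.38 (adjusted p = 0.0288). Added together, the 4 copies did not separate the strains. Their sum was 1414 ± 248 normalized counts in B6, from 1147 to 1687, against 1361 ± 78.2 in D2 (SD, n = 5 each), from 1261 to 1468. The strains differed in how the reads were shared out: Dynlt1a took 69.6% ± 1.17 of them in B6 against 36.9% ± 1.44 in D2 (SD, n = 5 each), while Dynlt1b took 9.69% ± 1.05 and 29.1% ± 1.76 (SD, n = 5 each). The share of Dynlt1c was 9.84% ± 1.6 in B6 against 20.2% ± 1.48 in D2 (SD, n = 5 each). Reads of both strains were aligned to the B6 genome, and 19.6% of the exon bases of Dynlt1a also lie in exons of Tmem181a on the opposite strand. Their part in the split among the copies was not tested.

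**Figure D3:**
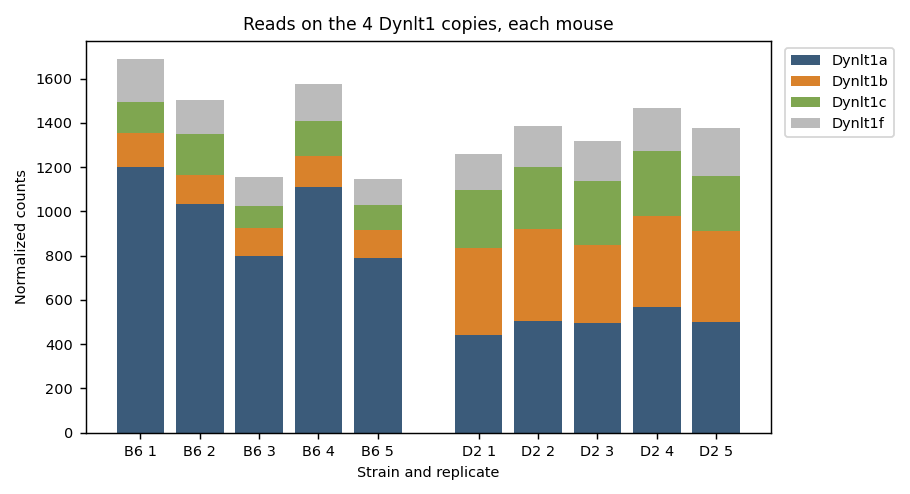
Normalized counts (y axis) of the 4 Dynlt1 copies stacked for each B6 and D2 mouse (x axis, strain and replicate number). Bar heights overlap between the strains, from 1147 to 1687 in B6 and from 1261 to 1468 in D2, while Dynlt1a fills most of each B6 bar and less of each D2 bar.

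Dynlt2b encodes a Tctex light chain known as a subunit of dynein-2, the motor that returns cargo from the tips of cilia. It had 1217, 1191, 1134, 1267 and 1108 normalized counts in B6 and 1599, 1746, 1763, 1649 and 1710 in D2. All D2 mice lay above all B6 mice, by 43.1% on average in the fit (log2 fold change 0.52, standard error 0.051, adjusted p = 1.02e-05), and the gene passed with any single mouse left out. Exons of the antisense transcript Gm53948 cover 37.1% of its exon bases. Dynlt5, another light chain of the family, had few reads, 23.7 ± 12.0 normalized counts in B6 against 81.8 ± 36.4 in D2 (SD, n = 5 each). It passed (log2 fold change 1.79, standard error 0.38, adjusted p = 0.00528), but the strains overlapped, since B6 replicate 3 with 39.0 lay above D2 replicate 1 with 38.5, and 49.8% of its exon bases also lie in exons of the antisense transcript BB031773. B6 replicates 3 and 5 held its highest B6 values, 39.0 and 33.9, and without them the difference moved from 3.46-fold to 5.31-fold (log2 fold change 2.41, adjusted p = 0.00124). Dynlt3, on the X chromosome, was the most abundant gene of the family with 5634 counts per kb, and its log2 fold change was -0.02 (adjusted p = 0.79). The remaining members were Dynlt2a3 and Dynlt4, with means of 2.1 and 18.3 raw counts.

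The 4 light chains of the other families did not pass in edgeR or DESeq2, and none had an unadjusted p under 0.05. Dynll1 and Dynll2 form the LC8 family, whose protein is a hub that binds dynein and many partners outside it. Unlike the Dynlt1 copies, these genes can be told apart by their reads, since 50 of 267 coding bases differ (81.3% identity) and none of their 150-base windows was shared. A stretch of 30 coding bases, from base 56 to base 85 at chr5:115438619-115438648 (-) for Dynll1 and chr11:87874745-87874774 (-) for Dynll2 in GRCm39, shows this, with the 10 differing bases in capitals.
Dynll1: aggaCTcGgtGgaGtgCgcTacCcaggcGT
Dynll2: aggaTGcCgtTgaCtgTgcCacAcaggcCA
Dynll1 had 15932 ± 1573 normalized counts in B6 against 16253 ± 869 in D2 (SD, n = 5 each), and Dynll2 had 54570 ± 2434 and 53241 ± 3679 (SD, n = 5 each). Their log2 fold changes were 0.03 (standard error 0.063) and -0.04 (standard error 0.051). Coq5, on the opposite strand, shares 29.5% of the exon bases of Dynll1. Dynlrb1, the abundant roadblock light chain, had a log2 fold change of -0.05 (adjusted p = 0.50). That of Dynlrb2, which had a mean of 58.4 raw counts, was 0.16 (standard error 0.48).

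None of the 5 subunits of cytoplasmic dynein-1, the motor of retrograde axonal transport, passed in edgeR or DESeq2, 1 had an unadjusted p under 0.05, and their log2 fold changes lay between -0.03 and 0.16. Dync1h1, the heavy chain that carries the motor domain, had 93151, 90914, 101503, 87402 and 105197 normalized counts in B6 and 104166, 96256, 103182, 103526 and 94641 in D2. The ranges overlapped (log2 fold change 0.07, standard error 0.055, adjusted p = 0.46), and the highest values in B6 were those of replicates 3 and 5. Without these 2 mice the log2 fold change was 0.15 (adjusted p = 0.0305). Dync1i1, the intermediate chain typical of neurons, had 8938 ± 986 in B6 against 9959 ± 137 in D2 (SD, n = 5 each) (adjusted p = 0.11), and without the 2 mice its log2 fold change moved from 0.16 to 0.27 (adjusted p = 5.27e-05). Dync1i2, the most abundant subunit per kb with 7383 counts, and the light intermediate chains Dync1li1 and Dync1li2 had log2 fold changes of 0.04, -0.03 and -0.00054 (adjusted p from 0.50 to 0.99).

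Cytoplasmic dynein-2, the retrograde motor of cilia, had 2 of 4 genes called, in opposite directions. Dync2li1, its light intermediate chain, had 2206, 2214, 1929, 2155 and 1976 normalized counts in B6 and 1695, 1927, 1781, 1788 and 1876 in D2. The strains did not overlap, but the lowest B6 mouse with 1929 was next to the highest D2 mouse with 1927, and the log2 fold change was -0.21 (standard error 0.054, adjusted p = 0.0157). With total counts as the only scaling the gene missed the threshold (adjusted p = 0.063). Dync2i1, an intermediate chain, was higher in D2, from 3110 ± 146 to 3501 ± 87.2 (SD, n = 5 each; log2 fold change 0.17, adjusted p = 0.00822). Dync2i2, the most abundant of the group per kb, and the heavy chain Dync2h1 had log2 fold changes of 0.04 (adjusted p = 0.68) and 0.15 (adjusted p = 0.20).

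Dynactin, the complex that lets dynein move over long distances, had 3 of 6 genes called. Dctn3 encodes the small p24 subunit of its shoulder. Its normalized counts were 4805, 5414, 5656, 5185 and 5912 in B6 and 3926, 3972, 4140, 3801 and 4041 in D2. Every D2 mouse lay below every B6 mouse, with means of 5395 ± 426 and 3976 ± 127 (SD, n = 5 each) and a log2 fold change of -0.44 (standard error 0.051, adjusted p = 4.69e-05). Dctn6, a subunit of the pointed-end part that helps to bind cargo, was lower in D2 by less, from 6464 ± 298 to 5782 ± 102 (SD, n = 5 each; log2 fold change -0.16, adjusted p = 0.00647). Dctn5, its partner at the pointed end, had a log2 fold change of -0.02 (adjusted p = 0.74).

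Dctn4, a further pointed-end subunit, was higher in D2, with 9668 ± 113 normalized counts in B6 against 10662 ± 252 in D2 (SD, n = 5 each; log2 fold change 0.14, adjusted p = 0.00293). Dctn1, the large p150 subunit that binds dynein and microtubules, had 48248, 49612, 51847, 50976 and 52320 normalized counts in B6 and 50017, 48916, 50879, 48883 and 50267 in D2. Its ranges overlapped and it was among the least variable motor genes, with a coefficient of variation of 3.30% in B6 and 1.75% in D2 (log2 fold change -0.02, standard error 0.033, adjusted p = 0.72). Dctn2, which joins the shoulder to the rest of the complex, had a log2 fold change of 0.11 (adjusted p = 0.081), which without B6 replicates 3 and 5 was 0.17 (adjusted p = 0.00200).

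Among the kinesins, the clearest differences were in kinesin-2, which moves cargo in cilia and dendrites. Kif17, its homodimeric motor, known for carrying NMDA receptor vesicles in dendrites, had the lowest adjusted p of the kinesins. Its normalized counts were 7149, 6869, 6929, 7937 and 7301 in B6 and 4440, 4716, 4676, 4470 and 4578 in D2. The strains were far apart relative to their spread, with means of 7237 ± 428 and 4576 ± 122 (SD, n = 5 each). The fitted level in D2 was lower by 1.58-fold (log2 fold change -0.66, standard error 0.042, adjusted p = 1.78e-07).

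The heterotrimeric form of kinesin-2 joins 2 motors, KIF3A with KIF3B or KIF3C, to the accessory subunit KAP3, encoded by Kifap3. Kifap3 was lower in D2, with 30965, 29943, 32244, 29333 and 32381 normalized counts in B6 and 24571, 23082, 23890, 24423 and 24329 in D2. All D2 mice lay below all B6 mice (log2 fold change -0.36, standard error 0.037, adjusted p = 1.30e-05). Kif3a was higher in D2, from 15311 ± 664 to 17397 ± 589 (SD, n = 5 each; log2 fold change 0.18, standard error 0.038, adjusted p = 0.00402). Kif3b and Kif3c had log2 fold changes of 0.02 and 0.03 (adjusted p = 0.79 and 0.78). Kif3c was the kinesin-2 motor with the highest level, 3822 counts per kb, although 34.6% of its exon bases lie in exons of the antisense transcript 1110002L01Rik. Subunits of the same complex thus differed in direction, and Kif17, Kifap3 and Kif3a each passed in all 10 fits with 1 mouse left out. Striatal markers (6 of 8) and oligodendrocyte markers (3 of 5, with sums of 429973 to 628818 in B6 and 325132 to 475169 in D2, none at 0) were also lower in D2, and their part in the lower values of Kif17, Kifap3 and Dctn3 was not tested.

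**Figure D4:**
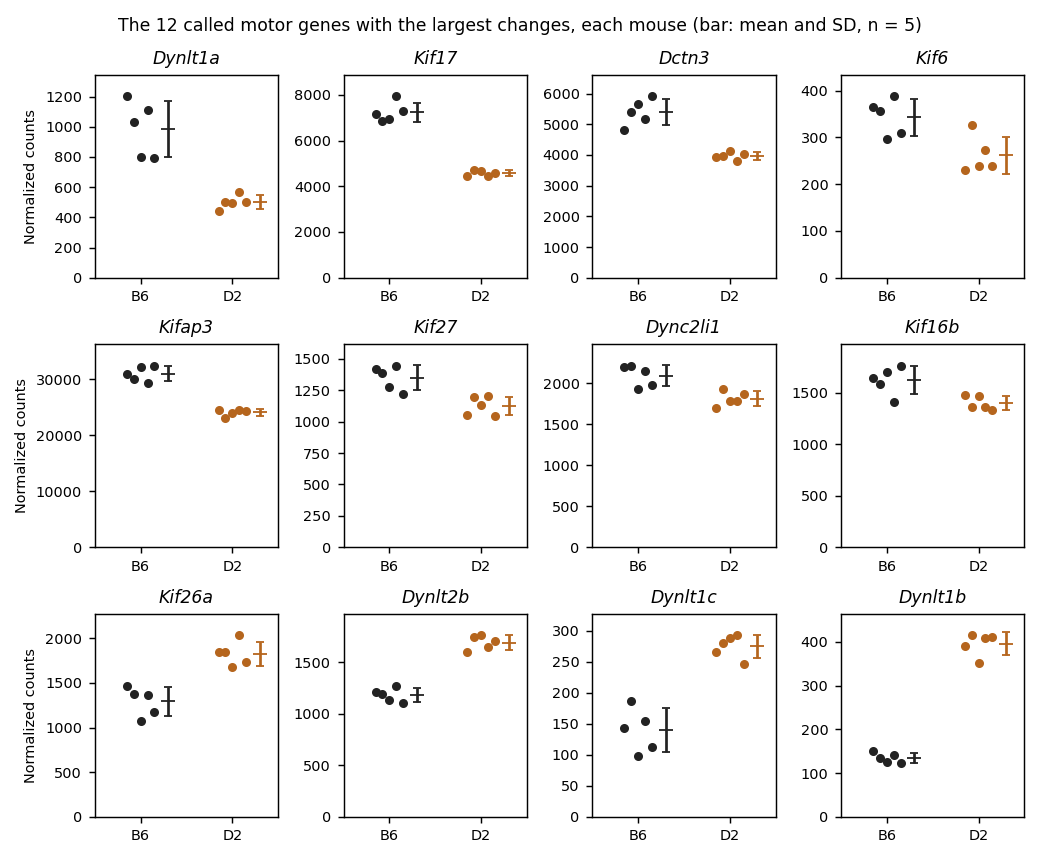
Normalized counts (y axis, starting at 0) in each of 5 B6 and 5 D2 mice, with the mean and SD, for the 12 called motor genes with the largest changes and 100 or more counts on average, ordered from the most negative to the most positive. Points of the strains are apart in 10 panels and overlap for Kif6 and Kif16b.

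The 3 heavy chains of kinesin-1 did not pass in edgeR or DESeq2, and none had an unadjusted p under 0.05. Kif5a, the most abundant motor gene, was uneven among the B6 mice. Kif5a had 202704, 230732, 298845, 196041 and 302167 normalized counts in B6 and 210441, 225388, 217184, 184931 and 186410 in D2. The 2 B6 mice with the highest cortex markers had the highest Kif5a values of all, 1.43 times the mean of the other 3, and the rest overlapped with D2 (log2 fold change -0.26, standard error 0.12, adjusted p = 0.17). These 2 mice also had the highest oligodendrocyte sums and the lowest striatal sums of B6, and the part of each was not tested. Without them the log2 fold change was -0.04 (adjusted p = 0.80), and with the level of the cortex markers as a covariate it was -0.33 (adjusted p = 0.00220), so the value depends on how these mice are treated. Kif5c, the other neuronal heavy chain, had 78138, 80574, 98172, 75255 and 99227 in B6 and 82436, 84364, 86887, 80415 and 77993 in D2. The same 2 B6 mice were high, with a log2 fold change of -0.07 (adjusted p = 0.65) that was 0.08 (adjusted p = 0.24) without them. Kif5b, the heavy chain found in most cell types, had 31631, 28758, 29016, 28029 and 27778 in B6 and 29435, 27516, 28132, 25614 and 26352 in D2, and the 2 mice did not stand out (log2 fold change -0.08, adjusted p = 0.27).

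**Figure D5:**
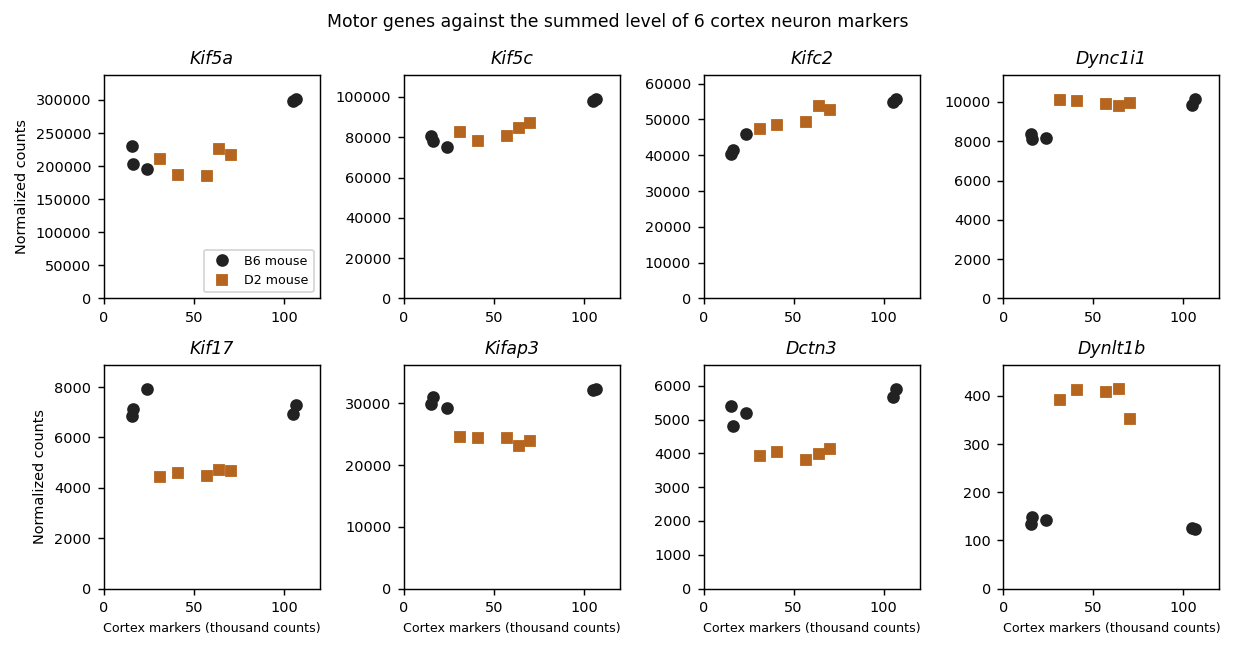
Normalized counts of 8 motor genes (y axes, starting at 0) against the summed normalized counts of 6 cortex neuron markers (x axes, in units of 1000 counts), with a point for each B6 and D2 mouse. The 2 B6 mice at the right, with cortex sums of 104952 and 106608, are highest for Kif5a, Kif5c and Kifc2 in the upper row, whereas for Kif17, Kifap3, Dctn3 and Dynlt1b in the lower row all 5 B6 mice lie on the same side of the D2 mice.

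The same 2 mice stood high for some other motor genes and low for others. Kifc2 had 54874 and 55856 normalized counts in them, 40374 to 45900 in the other B6 mice and 47429 to 53717 in D2, so that its log2 fold change was 0.08 (adjusted p = 0.64) with all mice and 0.24 (adjusted p = 0.00650) without the 2. Kif13b had 9079 and 9458 in them, 6954 to 7472 in the other B6 mice and 6220 to 7683 in D2. Kif1a, the most abundant kinesin-3, had 163480 and 166275 there against 141644 to 146490 in the other B6 mice and 148876 to 169347 in D2 (log2 fold change 0.05, adjusted p = 0.61). With B6 replicates 3 and 5 left out, 22 motor genes were called, 14 higher and 8 lower in D2, against 19.2% of all genes. Of the 20 called with all mice, 18 were kept, Kif14 and Kif16b were lost, and Dctn2, Dync1h1, Dync1i1 and Kifc2 were added. With the cortex marker level as a covariate, all 20 were kept and 8 were added (28 called, against 26.4% of all genes), of which Kif5a, Kif5c, Kif13b and Kifbp had negative and Dctn2, Dync1i1, Dync2h1 and Dynlt1f positive log2 fold changes, so that 14 were higher and 14 lower in D2. Both fits were added after the data were seen. Of the motor genes averaging 100 or more raw counts, 41 of 60 had a larger coefficient of variation in B6 than in D2, with medians of 6.55% and 4.92%.

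In kinesin-3, which carries vesicles and endosomes, 2 of 8 genes passed, and both were lower in D2. Kif16b, a motor of early endosomes, had 1645, 1589, 1707, 1410 and 1764 normalized counts in B6 and 1479, 1366, 1472, 1366 and 1339 in D2. B6 replicate 4 lay among the D2 mice, and the call (log2 fold change -0.21, adjusted p = 0.0338) held in 3 of the 10 fits with 1 mouse left out. Kif14, a kinesin of cell division, had 72.2 ± 12.8 in B6 against 52.0 ± 5.33 in D2 (SD, n = 5 each), and its call (adjusted p = 0.0465) held in 2 of 10. Without B6 replicates 3 and 5 neither gene passed. The log2 fold change was then -0.14 for Kif16b (adjusted p = 0.15) and -0.38 for Kif14 (adjusted p = 0.16). Kif1b, Kif1c and Kif13a had log2 fold changes of -0.01, -0.05 and 0.02, and Kif28 had a mean of 7 raw counts.

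In kinesin-4, Kif21b and Kif27 passed in opposite directions. Kif21b, a neuronal kinesin that also limits microtubule growth, was 16201 ± 759 in B6 against 17692 ± 316 in D2 (SD, n = 5 each; log2 fold change 0.13, adjusted p = 0.0269), and it passed in 5 of 10 fits with 1 mouse left out. Its paralog Kif21a, the most abundant of the group per kb with 3494 counts, had a log2 fold change of 0.10 (adjusted p = 0.096). Kif27, a relative of the Hedgehog pathway regulator Kif7, had 1420, 1391, 1273, 1444 and 1221 normalized counts in B6 and 1050, 1193, 1130, 1204 and 1048 in D2. The strains did not overlap, with the lowest B6 mouse at 1221 and the highest D2 mouse at 1204 (log2 fold change -0.26, standard error 0.064, adjusted p = 0.0118). Kif7 itself had a log2 fold change of 0.11 (adjusted p = 0.44), and Kif4 had a mean of 99 raw counts.

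Kinesin-9 motors are known from cilia and flagella. Kif6 had 364.7, 356.8, 295.7, 388.1 and 308.6 normalized counts in B6 and 230.3, 326.2, 238.1, 273.5 and 239.6 in D2. D2 replicate 2 lay within the range of B6, and the call (log2 fold change -0.39, standard error 0.11, adjusted p = 0.0321) held in 3 of the 10 fits with 1 mouse left out. The more abundant Kif9 had 820.3 ± 41.7 in B6 against 744.8 ± 80.6 in D2 (SD, n = 5 each; adjusted p = 0.26). D2 replicates 2 and 4, which had the highest Kif6 and Kif9 values of their strain, also had the highest sums of 7 ependyma markers, 2978 and 2991 normalized counts, where the other D2 mice had 1007 to 1543 and the B6 mice 1437 to 2097. Of these markers 1 of 7 was called, higher in D2, and none was at 0. D2 replicates 2 and 4 also had the highest D2 values of Kif27 (1193 and 1204) and Dynlrb2 (109.4 and 122.2). Their sums of 7 genes of dividing cells, 2452 and 1989, were the highest of D2 too. How many other motor genes were highest in these 2 mice was not counted. The part of either marker list in the values of these motor genes was not tested.

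Of the remaining called kinesins, Kif26a had the largest difference. It belongs to an atypical family without motor activity that acts in signalling, and it had 1469, 1375, 1077, 1363 and 1180 normalized counts in B6 and 1844, 1845, 1681, 2033 and 1734 in D2. Every D2 mouse lay above every B6 mouse (log2 fold change 0.50, standard error 0.084, adjusted p = 0.000901). Its relative Kif26b had nearly the same level per kb, 226 counts for each gene over all mice, with a log2 fold change of 0.03 (standard error 0.040, adjusted p = 0.75). Kif2a, a kinesin-13 that takes microtubules apart at their ends, was 9093 ± 382 in B6 against 9911 ± 249 in D2 (SD, n = 5 each; log2 fold change 0.12, adjusted p = 0.0268). It passed in 4 of 10 fits with 1 mouse left out, and 41.1% of its exon bases also lie in exons of Dimt1 on the opposite strand.

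No gene passed among the 6 mitotic kinesins of families 5, 6, 10 and 12, the 4 genes of kinesin-8 or the 4 of kinesin-14, in edgeR or DESeq2, and 1, 0 and 1 of them had an unadjusted p under 0.05. The mitotic kinesins had log2 fold changes from -0.45 (Kif11, adjusted p = 0.14) to 0.30 (Kif20a, adjusted p = 0.19), at 90 to 237.4 raw counts on average, and Kif23 had -0.02. Kif19a, the most abundant kinesin-8 per kb, had a log2 fold change of 0.13 (adjusted p = 0.37), and the kinesin-14 genes other than Kifc2 had values from -0.02 to 0.22. Kifc1 and Kifc5b shared 9.78% and 8.47% of their 150-base windows with each other. Kifbp, the kinesin binding protein, which keeps some kinesins off microtubules, had a log2 fold change of -0.08 (adjusted p = 0.11).

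Ratios of paralogs within a library do not depend on library scaling, and the log2 ratio of the raw reads of 9 pairs was tested by permutation of the mice (exact, two-sided). None passed after Benjamini-Hochberg adjustment over the 9 pairs, and 2 had an unadjusted p under 0.05. A single pair at the smallest possible exact p, 0.0079, could not have passed this adjustment, so the absence of passing pairs says little. The log2 ratio of Kif5a to Kif5c was 1.50 ± 0.11 in B6 against 1.31 ± 0.084 in D2 (SD, n = 5 each), a difference of -0.19 (exact p = 0.032, adjusted p = 0.14). That of Kif13a to Kif13b was -0.63 ± 0.13 and -0.45 ± 0.082 (SD, n = 5 each), a difference of 0.19 (exact p = 0.024, adjusted p = 0.14). Without B6 replicates 3 and 5, these differences were -0.11 and 0.09, and again none of the 9 passed, with 2 at an unadjusted p under 0.05. Dync1i1 to Dync1i2 then had the largest difference, 0.24 (exact p = 0.018, the smallest that the 56 assignments of 3 and 5 mice can give, adjusted p = 0.16). There too a single pair at the smallest p could not have passed.

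Called motor genes lay on several chromosomes, and the share of all genes called on each chromosome is not given here. On chromosome 17, 5 of 9 motor genes were called, of which 3 were Dynlt1 copies and the others Kif6 and Dync2li1. On chromosome 4, 3 of 8 were called, Dctn3, Dynlt5 and Kif17, which lie far apart at 41714797-41723209, 102835803-102862791 and 137977746-138031605 of GRCm39. On chromosome 1, Kif21b and Kif14 at 136059098-136105763 and 136394081-136459249 lie close together, and Kif21b was higher while Kif14 was lower in D2. None of the 5 motor genes of chromosome 9 and 1 of the 7 of chromosome 2 were called.

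A list of 72 partner genes of the motors (light chains of kinesin-1, dynein regulators and adaptors, kinesin cargo adaptors, microtubule proteins and tubulins) had 18 called, 9 in each direction, against 18.3% of all genes. The calls were 1 of 4 kinesin light chains, 2 of 5 dynein regulators, 3 of 13 dynein adaptors, 3 of 19 kinesin cargo adaptors, 2 of 17 microtubule proteins and 7 of 14 tubulins, the building blocks of microtubules. Tuba1c was 64.3 ± 22.8 normalized counts in B6 against 949.5 ± 70.6 in D2 (SD, n = 5 each), a log2 fold change of 3.88 (standard error 0.17, adjusted p = 8.17e-09). Tubb6 (1.06) and Tubg1 (0.32), the main gamma-tubulin of centrosomes, were higher in D2 as well, as were Klc3 (0.67), a kinesin light chain, and Spag5 (0.35), a spindle protein listed with the dynein regulators. Lower in D2 were Tuba1a (-0.44), Fez2 (-0.42), a kinesin cargo adaptor, Tubb2b (-0.36), Map7 (-0.30), which recruits kinesin-1 to microtubules, and Tubg2 (-0.26), where each value in parentheses is a log2 fold change past the threshold. Alpha- and beta-tubulin genes share long coding stretches, so reads among them may be split uncertainly. Nin, the gene of the study, had a log2 fold change of 0.27 (adjusted p = 0.000584). Without B6 replicates 3 and 5, 30 of the 72 partner genes were called, against 19.2% of all genes in that fit. Of the 18 called with all mice 16 were kept, Bicd2 and Borcs5 were lost, and 14 were added, among them the kinesin light chains Klc1 (adjusted p = 0.57 with all mice and 0.00237 without the 2) and Klc2 (0.29 and 0.00241) and the dynein regulator Pafah1b1 (0.11 and 0.00299).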

How the data were processed

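Each of 5 B6 and 5 D2 males gave 1 stranded poly-A library of the NAc, read as pairs of 150 bases. According to the methods and labels, trimming was done with fastp, alignment of both strains with STAR 2.7.10b to GRCm39, the genome of B6 (Ensembl annotation), sorting with SAMtools 1.6 and counting with featureCounts. The authors deposited raw counts per gene and left out genes whose median over the libraries was 0. The strand setting and the treatment of reads that match several genes are not given in the sources used here, so reads of overlapping genes cannot be told apart. Exons of 45 of the 72 motor genes overlap another gene. The labels and the methods name different providers of the libraries.

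Samples were grouped by the strain in their titles. Counts of all 29883 genes were fitted with edgeR 4.0.16 in R 4.3.3 (TMM normalization, strain as the only factor, quasi-likelihood F test, two-sided). Adjustment was by Benjamini-Hochberg across the whole table, at a threshold of 0.05. The study fitted strain with DESeq2, which served as an alternative here (version 1.42.0). Standard errors are the absolute log2 fold change over the square root of F. Single values and paralog ratios were compared with exact permutation tests over 252 assignments of the mice. Depth was 96977262 to 116776714 counted reads per library, and 12 of the 72 motor genes had a mean under 100 counts.

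Symbols, positions and canonical transcripts came from the GENCODE annotation of GRCm39, in which 29519 of the 29883 identifiers were found, and sequences from the GRCm39 genome. That annotation is later than the release the authors counted on. Lists of partner and marker genes were written from general knowledge. The motor genes, these lists and the naming rule were chosen with earlier results of these data known. Named with values are every called motor gene, the motor gene with the highest counts per kb in each role, the core kinesin-1, kinesin-2, dynein and dynactin genes, all Dynlt1 copies, and the called partner genes with the 5 largest changes in each direction. Values by mouse are given for the 12 called genes with the largest changes and a mean of at least 100 counts, and for Kif5a, Kif5b, Kif5c, Dync1h1 and Dctn1. The steps were tested on simulated data. Alternatives were other normalizations, filters and thresholds, DESeq2, a replicate block and each mouse left out, and 4 more were added after the data were seen. Figures were drawn with matplotlib 3.10.9.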

Additional observations from a re-analysis of the deposited data

Results flagged for a closer look

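The values of each strain were checked for 62 motor genes, those with a mean of at least 100 counts or a call. Of these 124 groups of 5 mice, 2 had a mouse far from the other 4, measured as the gap to the nearest mouse over the range of the group, where chance gives about 1 group in 20. Kif11, a mitotic kinesin, had 220.3 normalized counts in B6 replicate 2, and the other B6 mice had 280 to 302 (gap over range 0.725). Kifc3, a kinesin-14 of epithelial junctions, had 6227 in B6 replicate 2, and the other B6 mice had 5387 to 5567 (gap over range 0.786). Neither gene was called between the strains.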

How the results depend on the processing

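With each mouse left out in turn, 15 to 19 motor genes were called, of which 8 to 12 were higher and 7 to 9 lower in D2, and 4636 to 5676 of all genes, 16 to 22 partner genes and 0 paralog ratios. As with all mice, a single paralog pair at the smallest possible p could not have passed there. Values of the strains did not overlap for 17 to 19 motor genes in these runs. Lack of overlap is easier to reach with a mouse fewer, and the share of all genes in these runs is not given here. Of the 20 called motor genes, 15 passed in all 10 of these fits, while Kif21b passed in 5, Kif2a in 4, Kif6 and Kif16b in 3 and Kif14 in 2. Scaling by total counts alone left 6 motor genes lower in D2 (19 called, 13 higher). Dync2li1, Kif6, Kif16b and Kif14 missed the threshold there, while the median log2 fold change of all genes moved from 0.0036 to 0.035 and the share of called genes lower in D2 from 53.6% to 45.04%. At an adjusted p of 0.01, 13 motor genes (8 higher and 5 lower) and 3415 of all genes (11.4%) were called. With an absolute log2 fold change of at least 0.2 also required, 14 motor genes were called, 5 higher and 9 lower, and 4576 of all genes (15.3%). Without B6 replicates 3 and 5, 30 partner genes were called, and the cause was not tested. With the replicate number as a block, 18 motor genes (9 in each direction), 17 partner genes and 4731 of all genes were called, and Kif14 and Kif21b missed the threshold. No paralog ratio could pass with this block, since the smallest p of the exact sign-flip test used there is 0.0625. Correlations of same-numbered mice ran from -0.45 to 0.41, and not every mouse correlated best with its own number. Such correlations cannot exclude that mice of the same number were handled together. For the 39 single genes, 696 of 741 alternative values kept their side of the threshold, 41 lost the threshold and 4 gained it. Values near 0 that did not pass could change sign. Dctn1, for example, had a log2 fold change of -0.0232 in the main fit and 0.0086 with total counts. The 12 motor genes with a mean under 100 counts rest on the fewest reads.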
